A study of Mus musculus with 3 samples.

Results

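Natural killer (NK) cells were described in 3 single-cell RNA libraries of mouse lung, each made from the lung of 1 female C57BL6/J mouse labelled WT. Every mouse had been given 13 Gy on the thorax 5 months earlier. The CONV mouse received conventional dose rate irradiation, the CONV AsiDNA mouse received conventional irradiation and AsiDNA, a double-stranded DNA molecule that mimics a DNA break, and the FLASH mouse received ultra-high dose rate irradiation. AsiDNA was given at 100 mg/kg on each of 2 days and at 200 mg/kg on the day of irradiation. Lungs were digested to single cells and run on a droplet system, and the unirradiated animals of the study are not analysed here. Since each condition is 1 mouse and 1 library, no test between conditions is possible: condition, mouse, digestion and library cannot be told apart.

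A cell was taken as an NK cell when 3 or more of 7 genes (Ncr1, Klrb1c, Klre1, Prf1, Gzma, Klra8 and Eomes) had a value above 0 and none of Cd3e, Cd3g, Cd3d, Cd8b1, Cd79a and C1qa did. The rule found 559 NK cells among 19622 cells, 66 of them from CONV, 284 from CONV AsiDNA and 209 from FLASH. The values of these 13 genes chose the cells, so their presence or absence among the members is a description. Values are adjusted counts, which are whole numbers that the deposited processing had brought to similar totals per cell. In that order of libraries the median total per NK cell was 2862, 3105 and 2998. These cells had a median of 1109.5, 1260 and 1256 genes above 0. A level is given as adjusted counts summed over the NK cells of a library and scaled to a sum of 1000000 (CPM). Where 3 values follow one another without names, they stand in the order CONV, CONV AsiDNA, FLASH. A single adjusted count was worth 5.26 CPM among the few CONV cells, 1.14 among those of CONV AsiDNA and 1.58 among those of FLASH, so low levels were least precise in CONV.

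NK cells are innate lymphocytes that kill virus-infected, transformed or stressed cells with perforin and granzymes and release interferon gamma and chemokines. Activating and inhibitory receptors, many of them encoded together in the NK gene complex, set whether they respond. In the mouse they pass from a CD27+ stage to a CD11b+ (Itgam), KLRG1+ stage, while S1P receptors, integrins and chemokine receptors guide their traffic between blood and tissue, and the lung holds mostly late-stage cells that exchange with the circulation.

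The label was checked against NK genes that the rule did not use. Nkg7, a granule membrane protein of killer cells, was above 0 in 100%, 99.6% and 100% of NK cells of CONV, CONV AsiDNA and FLASH, and in 8.18%, 6.85% and 9.33% of the other cells. Klrd1 (CD94), the partner chain of the NKG2 receptors, was above 0 in 89.4%, 96.5% and 93.3% of NK cells, and Klrk1 (NKG2D), a receptor for stress ligands, in 89.4%, 93.3% and 91.9%. Tyrobp (DAP12), the signalling adaptor of several activating receptors, had levels of 3117 (CONV), 3226 (CONV AsiDNA) and 3175 (FLASH). The defining genes of stromal, macrophage, monocyte, dendritic and epithelial cells were listed at or near 0, apart from Hopx. Some T cell and ILC2 genes were above 0. In these files a gene can be listed at 0 in cells that use it, as mt-Co2 was in CONV and CONV AsiDNA, so the zeros are no proof of absence. All 11 stromal genes were listed at 0 in every library, the 19 macrophage and monocyte genes summed to 31.5, 2.27 and 0 CPM, and of the 13 epithelial genes Hopx alone was above 0. There were single cells with genes of another type: 1 CONV cell held 7 endothelial genes, 1 CONV AsiDNA cell 7 neutrophil genes, and among FLASH cells 1 held 6 mast cell and basophil genes and 2 held 3 B cell genes. Through such single cells the 7 neutrophil genes summed to 576 CPM in CONV AsiDNA. The 7 mast cell and basophil genes summed to 102 CPM in FLASH. Left out, as an alternative chosen after seeing the data, the 5 cells with genes of another type changed the NK shares to 1.02%, 4.05% and 3.29%. Of the T cell genes outside the rule, Trbc1 was above 0 in 51.5%, 58.1% and 49.3% of NK cells, Trdc in 6.06%, 17.3% and 11% and Trac in 0%, 1.76% and 1.44%. Transcripts of the T cell receptor beta constant genes without CD3 are known in NK cells. The 18 T cell genes summed to 862, 870.5 and 840.3 CPM, with a member in 50, 228 and 164 cells, and the 10 ILC2 genes to 158, 152 and 149.8 CPM, in 18, 83 and 71 cells.

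Among all genes ranked by the smallest of the 3 log2 ratios of NK cells over the other cells of the same library, 6 of the first 8 were rule genes, and lectin-like receptor genes filled most of the rest. Of the 20 genes ranked highest, 12 were Klr genes lying on chromosome 6 between 128609227 and 130337574 (GRCm38), the NK gene complex. The rule had used 3 of these 12 (Klrb1c, Klre1 and Klra8), and the other 9 were not used. Klra4 (Ly49D, chr6:130043731-130067271), an activating receptor, had NK cell levels of 846 (CONV), 1115 (CONV AsiDNA) and 879.7 (FLASH), and was above 0 in 0.0634%, 0.0597% and 0.099% of other cells. Klra9 (Ly49I, chr6:130178675-130193112), an inhibitory receptor for MHC class I, had levels of 852 (CONV), 798 (CONV AsiDNA) and 989 (FLASH). Klri2, Klrb1a, Klra7, Klra3 and Klrc2 followed, together with the chemokine gene Ccl5, the granzyme B inhibitor Serpinb9, Gzmb and AW112010, a long noncoding RNA that T and NK cells share. Gzma (granzyme A, chr13:113093825-113100981) had the highest ratio, with levels of 15539 (CONV), 16158 (CONV AsiDNA) and 17018 (FLASH), against 34.2, 36.7 and 24.4 in the other cells.

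NK cells were scarcest after conventional irradiation alone. They made up 1.04% of the CONV library (66 of 6372 cells, exact Clopper-Pearson 95% interval 0.802 to 1.32). They made up 4.07% of cells with AsiDNA (284 of 6983, 3.62 to 4.56) and 3.33% of cells after FLASH (209 of 6267, 2.90 to 3.81). The share in CONV AsiDNA was 3.93 times and that in FLASH 3.22 times the share in CONV, and the CONV interval lay below both others. These intervals, like all those given here, cover the sampling of cells within 1 library and not the difference between mice. None of 3 other lymphocyte gates had a spread of this size. Cells with 2 or more CD3 genes and Cd8a or Cd8b1 (the CD8 T gate) were 6.03%, 5.07% and 7.63%, and cells with Cd79a and Ms4a1 (the B gate) were 15.6%, 19.9% and 16.1%. Cells with 3 or more genes of type 2 innate lymphoid cells (the ILC2 gate) were 1.98%, 1.73% and 1.24%. Per 100 cells of the B gate there were 6.64, 20.4 and 20.8 NK cells, and per 100 cells of the CD8 T gate 17.2, 80.2 and 43.7. A share depends on what was freed from the tissue as well as on what was there, and this was not tested.

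**Figure D1:**
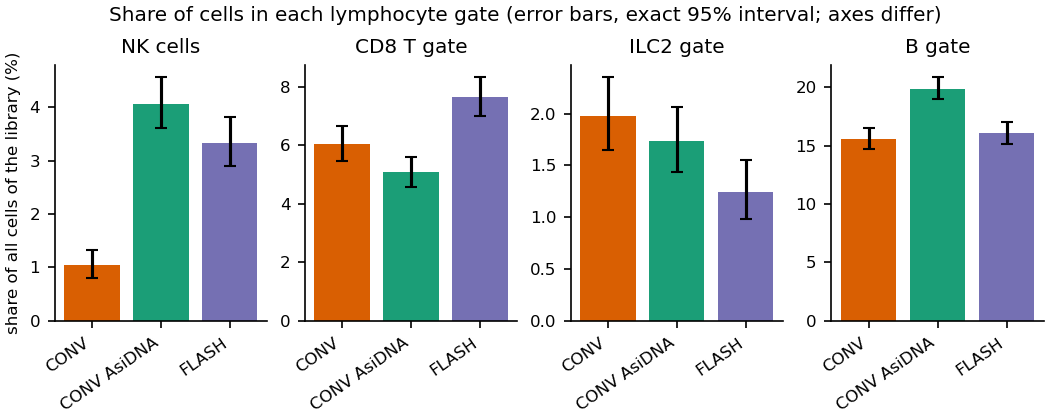
Share of all cells of each library (y axis, %) that met the rule for NK cells or for 3 other lymphocyte gates, with exact 95% intervals over cells as error bars and an axis of its own for each panel. The NK panel has its low bar in CONV (1.04%), and the other gates differ less between libraries.

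The cells just inside the rule, with exactly 3 of the 7 genes, numbered 8, 12 and 9, and those just outside, with exactly 2 genes and no exclusion gene, numbered 14, 14 and 5. Of the 29 cells just inside, 100% had Nkg7, 79.3% Klrd1 and 89.7% Ccl5 above 0, and of the 33 just outside 75.8%, 57.6% and 54.5%. Il7r, the interleukin 7 receptor of helper-like innate lymphoid cells, was above 0 in 41.4% of the former and 63.6% of the latter, and Rora in 20.7% and 54.5%. A further 14 CONV, 22 CONV AsiDNA and 49 FLASH cells had 3 or more rule genes together with an exclusion gene, and 12, 22 and 43 of these had 2 or more CD3 genes. All 7 rule genes were above 0 in 10.6%, 25.7% and 24.4% of NK cells.

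Across all genes, the NK cells of CONV stood apart from those of the other libraries. Log2 ratios were formed on the level plus 10 CPM, for genes with a sum of at least 20 over all NK cells and above 0 in both libraries. Of 6023 genes, 3.92% were 2-fold or more higher and 8.19% lower in CONV than in CONV AsiDNA. Of 6006 genes, 3.96% were higher and 9.49% lower in CONV than in FLASH. Between CONV AsiDNA and FLASH, 1.95% of 6424 genes were 2-fold or more higher and 1.76% lower. CONV thus differed from both others in more genes than they did from each other, with fewer cells behind its levels. These percentages are the background for every count below, and both CONV comparisons share the same 66 cells. The excess of lower genes in CONV depended on the level. Among genes with a sum of 500 or more, 1.31% were higher and 0.873% lower in CONV than in CONV AsiDNA, and 1.10% and 1.75% against FLASH. Of the 6473 genes with a sum of 20 or more, 445 were listed at 0 in all NK cells of CONV, 14 in CONV AsiDNA and 35 in FLASH. For comparison, in the CD8 T gate 2.05% of genes were 2-fold higher and 1.22% lower in CONV than in CONV AsiDNA, and in the B gate 0.375% and 2.27%. Against FLASH these shares were 3.72% and 1.03% in the CD8 T gate and 0.661% and 2.07% in the B gate.

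**Figure D2:**
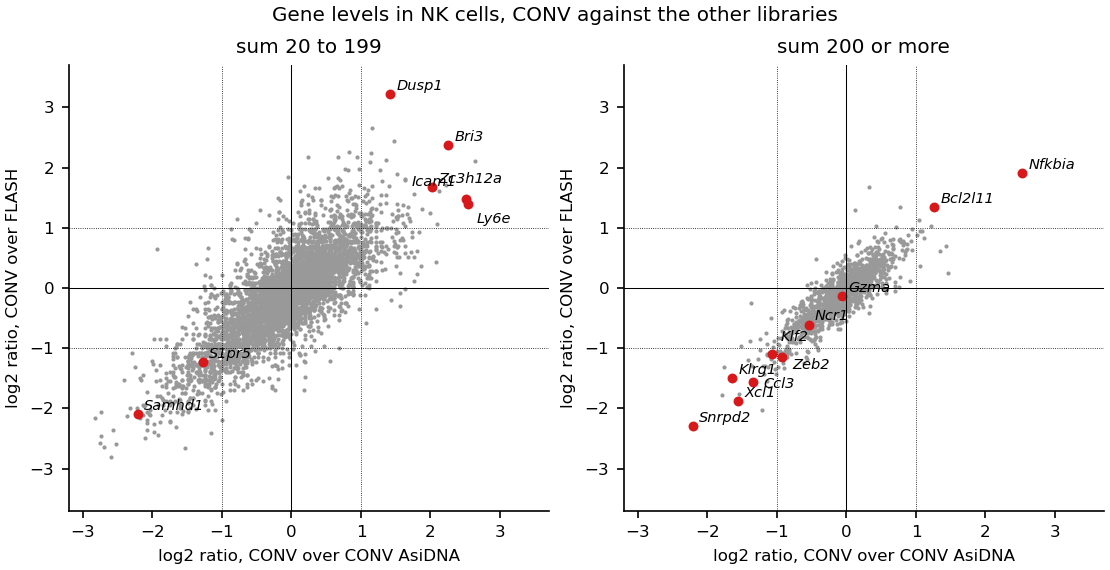
Each point is a gene, with the log2 ratio of its NK cell level in CONV over CONV AsiDNA on the x axis and over FLASH on the y axis, split by the sum of adjusted counts over all NK cells, and dotted lines mark 2-fold. Both axes share the CONV library, which alone pulls points along the diagonal. Nfkbia lies at 2.53 and 1.91, Klrg1 at -1.64 and -1.49, and Gzma near 0.

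The rule genes themselves differed little in level between CONV AsiDNA and FLASH. Ncr1 (NKp46, chr7:4337724-4345164), the activating receptor that best defines mouse NK cells, had levels of 594 (CONV), 868 (CONV AsiDNA) and 909.7 (FLASH), and was above 0 in 71.2%, 87.3% and 84.7% of NK cells. Klre1, an inhibitory lectin-like receptor, had levels of 815 (CONV), 1501 (CONV AsiDNA) and 1416 (FLASH), the lowest in CONV. Klra8 (Ly49H), the activating receptor for a cytomegalovirus protein, had levels of 557 (CONV), 1011 (CONV AsiDNA) and 839 (FLASH). Prf1 (perforin) levels were 1509 (CONV), 1707 (CONV AsiDNA) and 2042 (FLASH), and Klrb1c (NK1.1) levels were 1051 (CONV), 1039.8 (CONV AsiDNA) and 1216 (FLASH). Eomes, a T-box transcription factor of NK cells, was above 0 in 37.9%, 60.9% and 57.4% of the cells. None of the 7 rule genes differed by 2-fold between any pair of libraries, and a difference that kept a cell below 3 rule genes would not be seen. In the B gate, with median totals of 2882.5, 2979.5 and 3078, Gzma was above 0 in 0%, 0% and 0.298% and Ncr1 in 0%, 0% and 0.199% of cells. In the CD8 T gate Eomes was above 0 in 19.5%, 33.9% and 28.2%, Prf1 in 13%, 29.4% and 22% and Klre1 in 6.51%, 13.8% and 12.8% of cells, so these genes were shared with T cells.

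Of the genes of the late NK stage, Klrg1, S1pr5 and Vim were 2-fold or more lower in CONV than in both others, while most of the list was within 2-fold. Klrg1 (chr6:122270596-122282882), an inhibitory receptor for cadherins and the usual marker of terminally mature NK cells, had levels of 78.9 (CONV), 267 (CONV AsiDNA) and 239.6 (FLASH). It was above 0 in 10.6% (4.37 to 20.6), 40.1% (34.4 to 46.1) and 37.8% (31.2 to 44.7) of NK cells. CONV was the low library, and the shares of CONV AsiDNA and FLASH lay within each other's intervals. After each cell was thinned to 1000 adjusted counts the shares were 4.55%, 21.1% and 18.2%, in the same order of libraries. The log2 ratios of CONV were -1.64 against CONV AsiDNA and -1.49 against FLASH, and that of CONV AsiDNA over FLASH was 0.15. With T cell receptor and other genes added to the exclusion (the stricter exclusion), which left 22, 82 and 63 NK cells, the ratio against CONV AsiDNA was -0.97. In the B gate Klrg1 was above 0 in 0%, 0% and 0.298% of cells. CONV was also lowest for Klrg1 in the ILC2 gate, with shares of 7.94%, 24.8% and 15.4%, and in the CD8 T gate, with shares of 3.12%, 6.78% and 4.81%. Zeb2, a repressor that drives terminal NK maturation, had levels of 242 (CONV), 470.5 (CONV AsiDNA) and 544 (FLASH). It was above 0 in 36.4% (24.9 to 49.1), 62.3% (56.4 to 68) and 69.9% (63.1 to 76) of NK cells. CONV was again the low library. In the B gate Zeb2 was above 0 in 0%, 13.5% and 10.2% of cells, and that 0% is not read as absence. S1pr5, the sphingosine 1-phosphate receptor by which mature NK cells leave marrow and nodes, had levels of 42.1 (CONV), 116 (CONV AsiDNA) and 112 (FLASH), with shares of 12.1%, 27.8% and 24.4%. Thinned to 1000, the S1pr5 shares were 6.06%, 10.6% and 10%. Tbx21 (T-bet), the T-box factor of mature NK cells, had levels of 131, 191 and 202, within 2-fold, and its ratio against CONV AsiDNA was -1.19 with the stricter exclusion. CONV was lowest for each of these 4 genes.

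Among the genes listed for the CD11b+ stage, 16 of 16 had enough counts, and 3 of 15 were 2-fold or more lower and 0 higher in CONV than in CONV AsiDNA, and 4 of 15 lower and 0 higher than in FLASH. The median log2 ratios of this list were -0.14 and -0.41, beside -0.07 and -0.10 over all genes. The members lower than in both were Klrg1, S1pr5 and Vim (vimentin), and Zeb2 passed 2-fold against FLASH only. Vim levels were 231 (CONV), 482 (CONV AsiDNA) and 604 (FLASH), and its ratio against CONV AsiDNA was -0.93 when levels were scaled by the median gene ratio. Itgax (CD11c) was listed at 0 in CONV and had levels of 56.8 in CONV AsiDNA and 83.6 in FLASH. The other members named were within 2-fold, with Gzmb and Ly6c2 highest and Cma1 and Itgam lowest in CONV. Gzmb had levels of 1609 (CONV), 1192 (CONV AsiDNA) and 1187 (FLASH), Ly6c2 of 1241, 932 and 1028, and Cma1, a chymase of mature NK cells, of 457, 506 and 574. Itgam itself had levels of 173 (CONV), 185 (CONV AsiDNA) and 285 (FLASH), and its ratio against FLASH was -1.43 with the stricter exclusion.

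Stage by CD27 and CD11b was read from the presence of Cd27 and Itgam in each cell. Cells with Itgam only, the mature class, were 24.2% (16 of 66, 14.5 to 36.4), 32.4% (92 of 284, 27.0 to 38.2) and 38.8% (81 of 209, 32.1 to 45.7). Cells with Cd27 only were 10.6%, 15.5% and 13.4%, cells with both 9.09%, 8.45% and 10.0%, and cells with neither 56.1%, 43.7% and 37.8%. The intervals of CONV overlapped those of CONV AsiDNA in every class. Both transcripts are sparse: thinned to 1000, 80.3%, 76.4% and 69.9% of cells had neither, so the class shares moved strongly with depth.

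The split by Klrg1, chosen after its values were seen, described genes that went with it within a library. Cells with Klrg1 held Cd27 and Emb less often, and Cma1 more often, than cells without it, in both libraries that had enough of them. In CONV AsiDNA, Cd27 was above 0 in 16 of 114 cells with and 52 of 170 cells without Klrg1 (30.6%). In FLASH it was above 0 in 9 of 79 cells with and 40 of 130 cells without Klrg1 (30.8%). Emb, an immunoglobulin superfamily protein, was above 0 in 11 of 114 cells with and 62 of 170 cells without Klrg1 (36.5%) for CONV AsiDNA and in 9 of 79 cells with and 34 of 130 cells without Klrg1 (26.2%) for FLASH. Cma1 ran the opposite way, above 0 in 83 of 114 cells with and 72 of 170 cells without Klrg1 (42.4%) for CONV AsiDNA and in 62 of 79 cells with and 61 of 130 cells without Klrg1 (46.9%) for FLASH. Xcl1 was on the side of Cd27, above 0 in 22 of 114 cells with and 64 of 170 cells without Klrg1 (37.6%) for CONV AsiDNA and in 8 of 79 cells with and 48 of 130 cells without Klrg1 (36.9%) for FLASH. Of other genes of the late stage, Zeb2 and Itgam were also above 0 more often in cells with Klrg1. Zeb2 was above 0 in 73.7% of cells with and 54.7% without Klrg1 in CONV AsiDNA. In FLASH these Zeb2 shares were 77.2% and 65.4%. Itgam was above 0 in 46.5% and 37.1% in CONV AsiDNA and in 57.0% and 43.8% in FLASH. Vim and S1pr5 differed less by Klrg1. Vim was above 0 in 43.9% and 38.8% of cells with and without it in CONV AsiDNA and in 50.6% and 48.5% in FLASH, and S1pr5 in 31.6% and 25.3% and in 27.8% and 22.3%. Cells share a library and are not replicates, so no test is given. CONV had 7 cells with Klrg1, too few to split.

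Genes of the CD27+ stage did not move as one group. Among the genes listed, 14 of 14 had enough counts, and 2 of 14 were 2-fold or more lower and 1 higher in CONV than in CONV AsiDNA, and 3 of 14 lower and 1 higher than in FLASH. Xcl1 (chr1:164931644-164935527), the chemokine that attracts cross-presenting dendritic cells, had levels of 142 (CONV), 438 (CONV AsiDNA) and 547 (FLASH) and was above 0 in 12.1% (5.38 to 22.5), 30.3% (25 to 36) and 26.8% (20.9 to 33.3) of NK cells. CONV was low in both measures, but with the stricter exclusion the Xcl1 ratios were -0.28 and -0.06, short of 2-fold. Kit, the stem cell factor receptor, was also lower in CONV, with levels of 10.5, 56.8 and 36.3. Ly6e had levels of 347 (CONV), 51.1 (CONV AsiDNA) and 126 (FLASH), higher in CONV than in both others. Ctla2a had levels of 904 (CONV), 505 (CONV AsiDNA) and 533 (FLASH) and Cd27 of 89.4, 132 and 143, all within 2-fold, but with the stricter exclusion the Ctla2a ratios were 1.64 and 1.80. Il7r was highest in FLASH, at 57.8, 36.4 and 147, from 4, 10 and 16 cells.

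**Figure D3:**
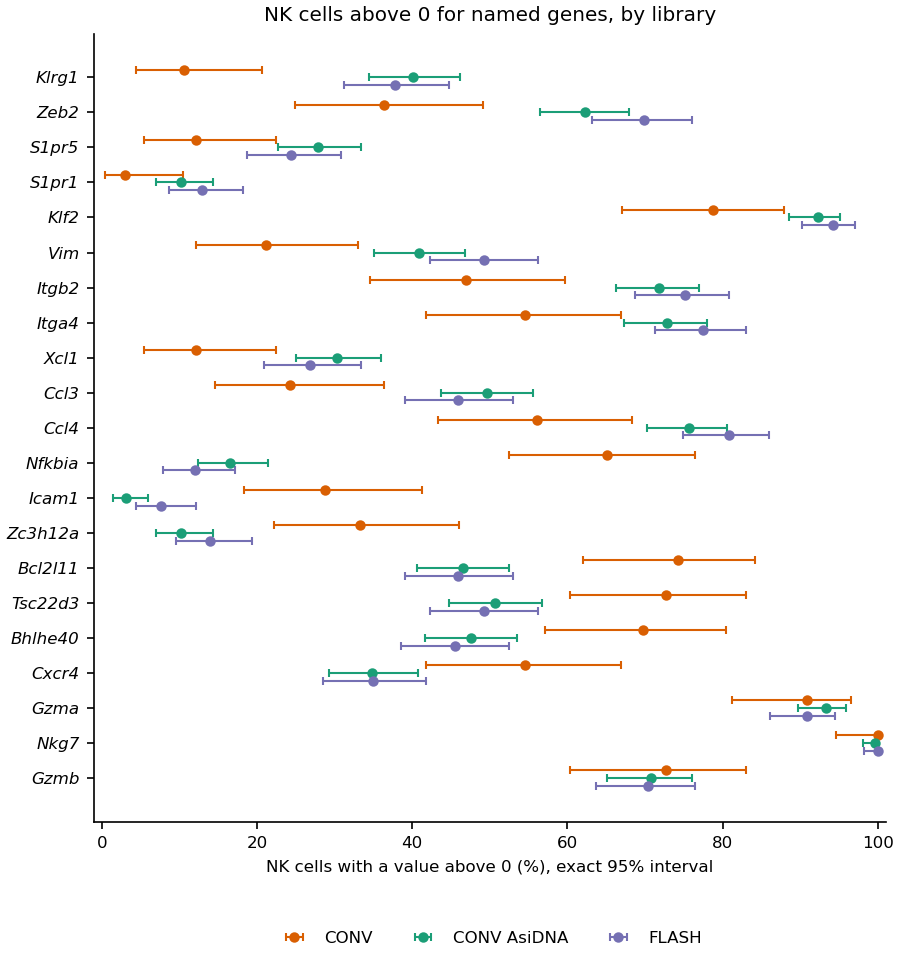
Share of NK cells with a value above 0 (x axis, %) for 21 named genes in each library, as points with exact 95% intervals over cells. Klrg1 (10.6% in CONV) to Ccl4 are lower and Nfkbia (65.2%) to Cxcr4 higher in the 66 CONV cells than in either other library, and Gzma, Nkg7 and Gzmb are close in all 3.

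Of the chemokine genes, Ccl3 and Xcl1 were lower in CONV in both comparisons. Among the cytokine and chemokine genes listed, 7 of 14 had enough counts, and 2 of 7 were 2-fold or more lower and 0 higher in CONV than in CONV AsiDNA, and 2 of 7 lower and 0 higher than in FLASH. Ccl3 (MIP-1 alpha, chr11:83647844-83649355) had levels of 263 (CONV), 683 (CONV AsiDNA) and 793 (FLASH), and was above 0 in 24.2% (14.5 to 36.4), 49.6% (43.7 to 55.6) and 45.9% (39 to 52.9) of NK cells. Thinned to 1000, the Ccl3 shares were 15.2%, 23.9% and 24.4%, lowest in CONV. With the stricter exclusion its ratio against CONV AsiDNA was -0.81. Ccl4 (MIP-1 beta) had levels of 2429 (CONV), 4008 (CONV AsiDNA) and 4016 (FLASH), below 2-fold, with shares of 56.1% (43.3 to 68.3), 75.7% (70.3 to 80.6) and 80.9% (74.9 to 86). Ccl5 (RANTES) was nearly even, at 20386 (CONV), 24068 (CONV AsiDNA) and 22439.5 (FLASH). Ifng (interferon gamma) levels were 226 (CONV), 322 (CONV AsiDNA) and 325 (FLASH), with shares of 19.7%, 36.6% and 36.4%. Its ratios passed 2-fold with 4 or more rule genes (-1.05 and -1.01) and with the stricter exclusion (-1.23 and -1.47). A few cells carried much of Xcl1 and Ccl3 in FLASH, where the highest single values were 107 and 106 adjusted counts, against 8 and 11 in CONV.

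Klf2 and the S1P receptor genes S1pr1 and S1pr5 were lower in CONV than in both others. Klf2 (chr8:72319033-72321656), a transcription factor that holds lymphocytes quiescent and switches on S1P receptors, had NK cell levels of 1540.3 (CONV), 3238 (CONV AsiDNA) and 3298 (FLASH). It was above 0 in 78.8% (67 to 87.9), 92.3% (88.5 to 95.1) and 94.3% (90.2 to 97) of NK cells. The log2 ratios were -1.07 against CONV AsiDNA and -1.09 against FLASH, and -0.97 and -0.96 when levels were scaled by the median gene ratio. CONV was the low library. The same gene was also low in CONV in the CD8 T gate, where levels were 669.6, 1392 and 1670.2, and in the B gate, where they were 1880.4, 3278 and 3259. The ILC2 gate differed, with levels of 637, 12.1 and 141, highest in CONV. These levels came from few cells, as Klf2 was above 0 in 7.14%, 1.65% and 6.41% of that gate. S1pr1, the receptor for lymphocyte exit, had NK cell levels of 21, 55.7 and 83.6 from 2, 29 and 27 cells, and its ratio against CONV AsiDNA turned to 0.20 with the stricter exclusion. Among the homing and adhesion genes listed, 20 of 21 had enough counts, and 2 of 19 were 2-fold or more lower and 0 higher in CONV than in CONV AsiDNA, and 2 of 19 lower and 0 higher than in FLASH, namely S1pr1 and S1pr5. The integrin chain Itgb2 (CD18) had levels of 331 (CONV), 578 (CONV AsiDNA) and 612 (FLASH) and shares of 47% (34.6 to 59.7), 71.8% (66.2 to 77) and 75.1% (68.7 to 80.8), and Itga4 (CD49d) had levels of 552, 760.2 and 985. Cxcr4, the receptor that retains lymphocytes in marrow and tissue, ran the other way, with levels of 357 (CONV), 206 (CONV AsiDNA) and 205 (FLASH) and shares of 54.5% (41.8 to 66.9), 34.9% (29.3 to 40.7) and 34.9% (28.5 to 41.8). Its level was highest in CONV, within 2-fold, and past it (1.10 and 1.33) with the stricter exclusion. Selplg, a selectin ligand, was within 2-fold in every pair. Cd44, the hyaluronan receptor, was listed at 0 in CONV and had levels of 4.55 in CONV AsiDNA and 59.9 in FLASH.

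Nfkbia, Icam1 and Zc3h12a were among the genes farthest above in CONV. Among 5034 genes with 3 or more NK cells above 0 in every library and 20 or more in all, the 8 genes farthest above both other libraries were Bri3, Nfkbia, Suclg2, Zc3h12a, Gch1, Klf9, Abcb9 and Icam1. They were chosen by this contrast, so their direction is a description. Nfkbia (chr12:55489410-55492647), the inhibitor that holds NF-kappa B in the cytoplasm and is itself its target, had levels of 1019.8 (CONV), 168 (CONV AsiDNA) and 263 (FLASH). It was above 0 in 65.2% (52.4 to 76.5), 16.5% (12.4 to 21.4) and 12% (7.89 to 17.1) of NK cells, and thinned to 1000 in 51.5%, 11.3% and 8.13%. CONV was high in each measure and its interval lay above both others. Icam1 (chr9:21015985-21028817), the ligand of the integrin LFA-1, had levels of 247 (CONV), 35.2 (CONV AsiDNA) and 82 (FLASH) and shares of 28.8%, 3.17% and 7.66%, and its ratio against FLASH was 0.40 with the stricter exclusion. Zc3h12a (regnase-1), a ribonuclease that degrades cytokine transcripts, had levels of 179 (CONV), 36.4 (CONV AsiDNA) and 48.9 (FLASH) and shares of 33.3%, 10.2% and 13.9%. Gch1, the first enzyme of tetrahydrobiopterin synthesis, had levels of 63.1, 13.6 and 11. Bri3, a membrane protein, had levels of 189, 31.8 and 28.4, and Suclg2, a subunit of mitochondrial succinyl-CoA ligase, of 94.6, 12.5 and 22.1. Within CONV, Nfkbia was above 0 in 17 of the 19 cells with Icam1 and in 26 of the 47 without. After FLASH it was above 0 in 7 of the 16 cells with Icam1 and in 18 of the 193 without. In CONV AsiDNA it was above 0 in 7 of the 9 and 40 of the 275. Outside CONV the share with Nfkbia was close in cells with and without Zc3h12a or Bcl2l11. With and without Zc3h12a it was above 0 in 77.3% and 59.1% of CONV cells, 17.2% and 16.5% of CONV AsiDNA cells and 13.8% and 11.7% of FLASH cells. With and without Bcl2l11 these shares were 67.3% and 58.8%, 15.9% and 17.1%, and 12.5% and 11.5%. Birc3, an inhibitor of apoptosis, had levels of 105, 52.3 and 50.5 and log2 ratios of 0.89 against CONV AsiDNA and 0.93 against FLASH.

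The sequence before the start site is shown for Nfkbia and Gch1, the members of these 8 whose promoter window held the kappa B consensus. The motif was searched by its 10-letter consensus on both strands in the RefSeq windows of 300 bases (build GRCm38.p6, 250 before to 50 after each start), and 4.51% of all 32851 windows held it. It was in 2 of the 8 genes farthest above and in 0 of the 8 farthest below in CONV. These counts are of genes and the share is of windows, so they are not in the same unit. The 250 bases before the start are printed 5′ to 3′ on the gene's strand, with the motif in capitals, which begins 29 bases before the start of Nfkbia (chr12:55492648-55492897, minus strand) and 10 bases before that of Gch1 (chr14:47189414-47189663, minus strand). A match is a description of these letters and not of binding.
Nfkbia: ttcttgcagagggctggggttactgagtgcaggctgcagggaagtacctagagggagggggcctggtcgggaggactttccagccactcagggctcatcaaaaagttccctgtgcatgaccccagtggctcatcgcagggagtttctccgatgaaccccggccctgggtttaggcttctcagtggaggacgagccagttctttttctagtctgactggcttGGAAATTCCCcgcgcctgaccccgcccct
Gch1: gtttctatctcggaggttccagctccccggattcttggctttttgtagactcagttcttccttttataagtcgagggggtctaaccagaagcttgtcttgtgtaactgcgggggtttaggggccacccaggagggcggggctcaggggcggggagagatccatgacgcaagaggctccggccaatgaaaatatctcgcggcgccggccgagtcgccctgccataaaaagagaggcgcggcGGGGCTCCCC

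In other lymphocytes of the same libraries CONV was highest for Nfkbia, Zc3h12a, Icam1 and Gch1 in the CD8 T and ILC2 gates, and lowest for Nfkbia and Zc3h12a in the B gate. Nfkbia levels in the CD8 T gate were 358, 205 and 210.4, in the ILC2 gate 1917, 1805 and 1775 and in the B gate 59.6, 149.8 and 105. Zc3h12a levels were 24.2, 15.8 and 18.4 in the CD8 T gate, 112, 92 and 87.8 in the ILC2 gate and 31.3, 52.1 and 40.9 in the B gate. Icam1 was above 0 in 3.12%, 0.282% and 0% of the CD8 T gate, in 4.76%, 0% and 2.56% of the ILC2 gate and in no cell of the B gate. Whether these differences were of another size than in NK cells was not tested. Gch1 was highest in CONV in every gate, with levels of 72.6, 32.5 and 26.7 in the CD8 T gate, 54.6, 36.3 and 26.7 in the ILC2 gate and 79.9, 48 and 33.2 in the B gate.

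**Figure D4:**
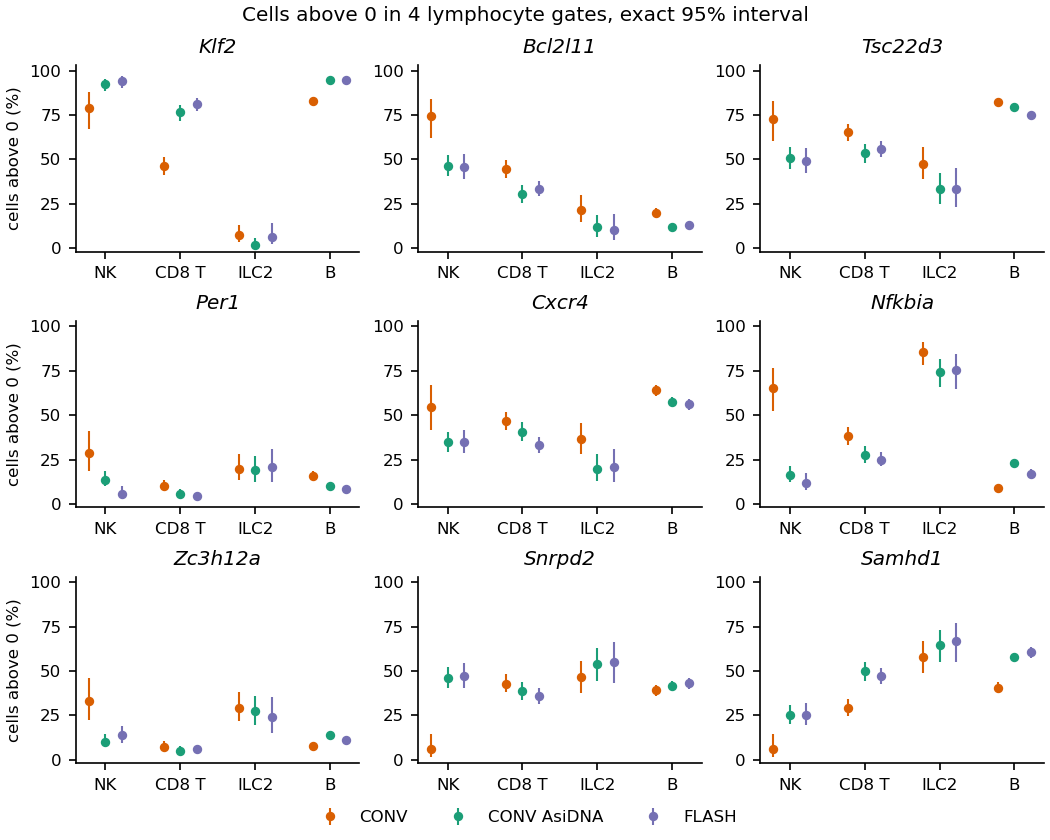
Share of cells with a value above 0 (y axis, %) for 9 genes in the NK, CD8 T, ILC2 and B gates of each library, with exact 95% intervals over cells. Bcl2l11 and Tsc22d3 are higher in CONV in all 4 gates, whereas Nfkbia is higher in CONV in NK cells and lower in the B gate, and Snrpd2 in CONV is at 6.06% in NK cells and between 39.2% and 46.8% in the other gates.

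Glucocorticoid and clock genes formed the list with the highest median in CONV among those tested. Of the genes listed, 11 of 22 had enough counts, and 0 of 11 were 2-fold or more lower and 4 higher in CONV than in CONV AsiDNA, and 0 of 11 lower and 3 higher than in FLASH, with median log2 ratios of 0.89 and 0.59, beside -0.07 and -0.10 over all genes. Tsc22d3 (GILZ), a glucocorticoid-induced leucine zipper protein, had levels of 557 (CONV), 286 (CONV AsiDNA) and 279 (FLASH) and shares of 72.7% (60.4 to 83), 50.7% (44.7 to 56.7) and 49.3% (42.3 to 56.3). CONV was highest, just under 2-fold. Per1, a clock repressor that glucocorticoids also induce, had levels of 126 (CONV), 52.3 (CONV AsiDNA) and 22.1 (FLASH), and Klf9, another glucocorticoid target, of 68.3, 7.95 and 15.8. With 4 or more rule genes the Klf9 ratio against FLASH was 0.97. Bhlhe40, a clock repressor active in effector lymphocytes, had levels of 599 (CONV), 284 (CONV AsiDNA) and 269.6 (FLASH) and shares of 69.7% (57.1 to 80.4), 47.5% (41.6 to 53.5) and 45.5% (38.6 to 52.5), again highest in CONV, with a ratio against FLASH of 0.88 under the stricter exclusion. Ddit4, an inhibitor of mTORC1, had levels of 121, 45.5 and 77.3, and its ratio against CONV AsiDNA turned to -0.15, and that against FLASH to -1.36, with the stricter exclusion. Outside NK cells Tsc22d3 levels were also highest in CONV, at 412, 276 and 292 in the CD8 T gate and 925, 766 and 657 in the B gate, and so were Per1 levels, at 33.6, 16.6 and 13 in the CD8 T gate and 65.8, 38.2 and 31 in the B gate. No source used here gives the time of day at which each lung was taken.

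Among survival genes Bcl2l11 was higher in CONV than in both others. Of the survival genes listed, 13 of 16 had enough counts, and 0 of 12 were 2-fold or more lower and 1 higher in CONV than in CONV AsiDNA, and 0 of 12 lower and 2 higher than in FLASH. Bcl2l11 (BIM, chr2:128126038-128162547), the BH3-only protein that triggers death of lymphocytes short of cytokine, had levels of 631 (CONV), 257 (CONV AsiDNA) and 243 (FLASH). It was above 0 in 74.2% (62 to 84.2), 46.5% (40.6 to 52.5) and 45.9% (39 to 52.9) of NK cells, and its log2 ratios were 1.26 against CONV AsiDNA and 1.34 against FLASH. CONV was high, and with the stricter exclusion its ratio against FLASH was 0.80. It was also highest in CONV in the CD8 T gate, at 285, 139 and 141, and in the B gate, at 107, 51.8 and 54.3. Bcl2, which opposes it, had NK cell levels of 662, 458 and 547, and Mcl1, the survival factor NK cells depend on, of 57.8, 106 and 106. Bcl2l1 was lowest in FLASH, at 26.3, 39.8 and 4.73, but its ratio of CONV over FLASH was 0.48 without the cells that held genes of another type. Of the p53 target and damage genes listed, 15 of 24 had enough counts, and 0 of 14 were 2-fold or more lower and 1 higher in CONV than in CONV AsiDNA, and 0 of 14 lower and 0 higher than in FLASH. Mdm2, the p53 ubiquitin ligase, had levels of 84.1, 48.9 and 37.8 and Bbc3 (PUMA) of 147, 77.3 and 94.6. All were below 2-fold on the level plus 10 CPM, but with a pseudocount of 1 the Mdm2 ratio against FLASH was 1.13. Gadd45b, a stress-induced gene of the list, was the member higher than in CONV AsiDNA, at 42.1, 5.68 and 17.3. Cdkn1a (p21) was above 0 in 1 CONV cell, 1 CONV AsiDNA cell and no FLASH cell.

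Immediate early genes were mixed. Of the genes listed, 23 of 32 had enough counts, and 2 of 22 were 2-fold or more lower and 2 higher in CONV than in CONV AsiDNA, and 2 of 22 lower and 3 higher than in FLASH. Dusp1, a phosphatase that ends MAP kinase signals, had levels of 305 (CONV), 108 (CONV AsiDNA) and 23.6 (FLASH), a range also seen in the CD8 T gate, where levels were 126, 27.7 and 3.56. Nr4a1, an orphan receptor induced by receptor signals, was lowest in FLASH, at 279, 256 and 107. Rhob, a small GTPase, was lower in CONV, at 26.3, 163 and 80.4, with a ratio against FLASH of -0.74 under the stricter exclusion, and so was the heat shock protein gene Hspa8, within 2-fold, at 394, 703 and 706. No direction held for the list as a whole. Junb, Jund, Btg1 and Zfp36l2 were within 2-fold in each pair. The list also held Nfkbia, higher in CONV, with log2 ratios of 2.53 against CONV AsiDNA and 1.91 against FLASH. It held Klf2 as well, lower in CONV, at -1.07 and -1.09. The genes of this list, Nfkbia and Klf2 included, respond to tissue digestion as well as to signals in the animal. The part of digestion was not tested.

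The granule genes Gzmb and Nkg7 were within 2-fold in every pair, as were Gzma and Prf1, which had helped to choose the cells. Of the granule genes listed, the same pair of rule genes included, 17 of 20 had enough counts, and 0 of 14 were 2-fold or more lower and 1 higher in CONV than in CONV AsiDNA, and 1 of 15 lower and 1 higher than in FLASH. The member higher than in CONV AsiDNA was Rab27a, a GTPase of granule release, at 105, 43.2 and 78.8. The member higher than in FLASH was Gzmc, named after its values were seen, whose CONV level came from a single cell, and the one lower was Unc13d, a priming factor of granule fusion, at 15.8, 37.5 and 44.1. Gzma levels differed by 0.13 or less on the log2 scale between any pair, and Nkg7 by 0.17 or less. Srgn, the proteoglycan core of granules, had levels of 1157, 947 and 993, and Fasl of 336, 365 and 356. The granule protease genes Ctsc and Ctsd were listed at 0 in CONV, and Ctsd had levels of 30.7 in CONV AsiDNA and 194 in FLASH. Between CONV AsiDNA and FLASH, 2 of 16 granule genes were 2-fold or more lower and 0 higher, beside 1.76% and 1.95% of all genes.

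Receptor genes were mostly within 2-fold. The receptor lists hold the rule genes Ncr1, Klrb1c, Klra8 and Klre1, which had helped to choose the cells. Of the activating receptor genes listed, 12 of 14 had enough counts, and 1 of 12 were 2-fold or more lower and 0 higher in CONV than in CONV AsiDNA, and 0 of 12 lower and 0 higher than in FLASH, and the 1 was Crtam, at 5.26, 21.6 and 20.5. Of the inhibitory receptor genes listed, 13 of 18 had enough counts, and 2 of 13 were 2-fold or more lower and 1 higher in CONV than in CONV AsiDNA, and 1 of 13 lower and 1 higher than in FLASH. Klrc1 (NKG2A) had levels of 184, 256 and 320.0 and Klrc2 (NKG2C) of 336, 531 and 536. The Ly49 genes include the rule gene Klra8, and 11 of them lie between 129831154 and 131247362 on chromosome 6. They are close copies of one another, so reads may be split or lost among them and single values are uncertain. NK cells held a median of 2, 3 and 2 Ly49 genes above 0, and 74.2% (62.0 to 84.2), 80.3% (75.2 to 84.7) and 72.7% (66.2 to 78.6) of them held 2 or more. Klra1 (Ly49A) was highest in CONV AsiDNA, at 99.9, 274 and 119.8, and above 0 in 13.6% (6.43 to 24.3), 21.5% (16.8 to 26.7) and 13.9% (9.49 to 19.3) of NK cells. Klra5 rested on 2, 3 and 3 cells.

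Signalling adaptors and kinases were called about as seldom as all genes. Of those listed, 20 of 21 had enough counts, and 1 of 18 were 2-fold or more lower and 0 higher in CONV than in CONV AsiDNA, and 1 of 18 lower and 0 higher than in FLASH, without Syk and Ptpn6, which were listed at 0 in CONV and so had no ratio. Tyrobp, Fcer1g, Hcst and Txk differed by less than 2-fold. Syk, the kinase that DAP12 recruits, was listed at 0 in all 66 CONV cells and above 0 in 16.9% of CONV AsiDNA and 21.5% of FLASH cells, with levels of 63.6 and 83.6. Plcg2, a phospholipase downstream of it, had levels of 5.26, 46.6 and 61.5. Zap70, the related kinase, had levels of 63.1, 63.6 and 80.4. Of the cytokine receptor and JAK-STAT genes listed, 22 of 29 had enough counts, and 2 of 22 were 2-fold or more lower and 0 higher in CONV than in CONV AsiDNA, and 2 of 22 lower and 0 higher than in FLASH, namely Jak2, the kinase of many cytokine receptors, and Socs3, a feedback inhibitor. Il2rb, the shared receptor chain for interleukins 2 and 15, had levels of 1178, 1165 and 1023.

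Interferon-stimulated genes were mixed. Of the interferon-stimulated genes listed, 11 of 26 had enough counts, and 2 of 11 were 2-fold or more lower and 1 higher in CONV than in CONV AsiDNA, and 2 of 11 lower and 1 higher than in FLASH. Ifi47, an interferon-induced GTPase, had levels of 36.8 (CONV), 126 (CONV AsiDNA) and 148 (FLASH) and shares of 6.06% (1.68 to 14.8), 28.9% (23.7 to 34.5) and 32.5% (26.2 to 39.3). Ly6e was the member higher in CONV. Irf7, the master factor of the type I interferon response, was highest in CONV AsiDNA, at 52.6, 124 and 59.9. Of the MHC class I genes listed, 15 of 15 had enough counts, and 1 of 15 were 2-fold or more lower and 0 higher in CONV than in CONV AsiDNA, and 2 of 15 lower and 0 higher than in FLASH. The class I genes H2-K1, H2-D1 and B2m had levels of 2655, 3234 and 3320.3, of 2897, 2964 and 2762 and of 1719, 2213 and 2062. Tapbp (tapasin), which loads class I molecules, had levels of 31.5, 94.3 and 93.

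Mki67 and Top2a, genes of dividing cells, were sparse. Of the cell cycle genes listed, 15 of 22 had enough counts, and 1 of 11 were 2-fold or more lower and 0 higher in CONV than in CONV AsiDNA, and 1 of 11 lower and 0 higher than in FLASH. Mki67 was above 0 in 0, 3 and 1 cells, and Top2a in 1, 7 and 2. Pcna, a replication clamp, had levels of 68.3, 132 and 143, and Stmn1 of 105, 209 and 142. Of the genes listed for group 1 innate lymphoid cells and tissue residency, 5 of 14 had enough counts, and 0 of 5 were 2-fold or more lower and 1 higher in CONV than in CONV AsiDNA, and 1 of 5 lower and 1 higher than in FLASH. Cd69, an early activation and residency marker, was above 0 in 27.3%, 32.4% and 27.3% of NK cells. Itga1 (CD49a) was above 0 in 6 of 66 CONV, 2 of 284 CONV AsiDNA and none of 209 FLASH NK cells. Rora was above 0 in 7 of 66, 19 of 284 and 12 of 209, and was the member with the higher level in CONV.

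The 8 genes farthest below both other libraries in CONV were of another kind: Snrpd2, Samhd1, Tcp1, Supt16, Lmo4, Rtn3, Glud1 and Caprin1, mostly genes that all cells use. Snrpd2, a core splicing protein, had levels of 36.8 (CONV), 206 (CONV AsiDNA) and 219 (FLASH) and was above 0 in 6.06% (1.68 to 14.8), 46.1% (40.2 to 52.1) and 47.4% (40.4 to 54.4) of NK cells. In the CD8 T gate its shares were 43%, 38.7% and 36%, and in the B gate 39.2%, 41.7% and 43%. In the ILC2 gate they were 46.8%, 53.7% and 55.1%. Samhd1, a dNTP hydrolase, had NK cell levels of 21 (CONV), 133 (CONV AsiDNA) and 123 (FLASH), and B gate levels of 221, 365 and 387. Tcp1, a chaperonin subunit, had levels of 15.8, 102 and 89.9 in NK cells and 88.2, 99 and 87.7 in the CD8 T gate. Caprin1, an RNA-binding protein, had levels of 21, 94.3 and 104 in NK cells and 47.9, 107 and 102 in the B gate. With 66 cells CONV had the fewest counts, and the part of cell number in its low values was not tested.

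CONV AsiDNA and FLASH differed from each other in fewer genes than either did from CONV. Farthest above both others in CONV AsiDNA were Elavl1, an RNA-stabilising protein, at 42.1, 115 and 41, then Lsm1, Klra1 and Rpia, and farthest below were Cers5, Ppfia1 and Bcas3, all under 50 CPM in every library. Crip1, an LIM protein of lymphocytes that is also far below in CONV AsiDNA, had levels of 515 (CONV), 181 (CONV AsiDNA) and 434 (FLASH) and was above 0 in 40.9% (29 to 53.7), 10.2% (6.95 to 14.3) and 31.1% (24.9 to 37.9) of cells. With the stricter exclusion CONV AsiDNA was no longer 2-fold below, the log2 ratio of CONV over it being 0.86 and its own over FLASH -0.68. Farthest above in FLASH were Agfg1, Il7r and Opa1, and farthest below were Dusp1, Rpn2, Lemd2, Bambi, Cstf3 and Lars2. Lars2 had levels of 368 (CONV), 293 (CONV AsiDNA) and 109 (FLASH). Agfg1 and Opa1 had levels of 15.8, 19.3 and 63.1 and of 15.8, 19.3 and 55.2, from 3 CONV cells each, and with the stricter exclusion the ratio of Agfg1 in CONV over CONV AsiDNA turned from -0.19 to 1.22.

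Some genes were listed at 0 in a whole library. Gm42418, a transcript overlapping ribosomal RNA, had levels of 24497 (CONV), 23025 (CONV AsiDNA) and 0 (FLASH). AY036118, which lies within Gm42418 on the opposite strand of chromosome 17, had levels of 725, 734 and 0. In the other cells of FLASH Gm42418 was above 0 in 5.33%. mt-Co2, a subunit of cytochrome oxidase that every cell uses, was above 0 in 0%, 0% and 51.2% of NK cells, and mt-Atp6 in 0%, 0% and 28.7%. mt-Nd5 was listed at 0 in CONV AsiDNA, Prdx6 and Vegfa in FLASH, and Cox20, Ctsd and Hpcal1 in CONV. Mitochondrial genes were 0.108%, 0.0438% and 0.475% of the adjusted counts of NK cells. Because genes of every cell are among them, a gene listed at 0 here is not read as absent, and no fold is given for it.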

How the data were processed

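Droplet libraries of lung were analysed, with 1 mouse each for CONV, CONV AsiDNA and FLASH. Per the submitters' processing notes reads were aligned with Cell Ranger 6.0.0 to mm10. The authors analysed the cells in R, and each deposited value is a natural log, taken of an adjusted whole number with 1 added, which was recovered to within 1e-10. These are not raw counts, so no count model and no counting interval was used, and raw depth is unknown. Adjusted counts were summed over NK cells per library and scaled to 1000000, and 2-fold on the level plus 10 CPM was the call. Shares have exact 95% intervals, and cells were thinned to 1000 or 500 adjusted counts for comparison. No filter on cells and no doublet caller was applied; cells with genes of other lineages were counted instead. The libraries shared 9 to 17 barcodes a pair, and no barcode was an NK cell in both. NK totals ranged from 2280 to 4474. Named genes were the rule genes, up to 8 members of each list by level with those past 2-fold and above 0 in at least 10 cells, the 20 genes highest in NK over other cells, the 8 farthest above and below in each library, and genes in at least 25% of NK cells of a library and listed at 0 in another. The members and lists were chosen with earlier results of these data known. The code for levels and ratios was checked on cells simulated with the cell numbers of CONV AsiDNA and FLASH, for genes of higher level. The cell number of CONV and genes of low level were not part of that check. The other 4 tables were not used: 3 hold the authors' own comparisons and 1 holds 12 columns that match no sample label. Positions are from GENCODE vM21 (GRCm38). Python 3.11.15, numpy 2.4.6, scipy 1.17.1, pandas 2.3.3 and matplotlib 3.10.9 were used.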

Additional observations from a re-analysis of the deposited data

How the results depend on the processing

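With 1 library per condition there is no replicate error, and no library could be left out. No paired analysis was possible because each condition has 1 sample. Of 126 recomputed shares and counts, 84 stayed near the reported value. The shares of NK cells above 0 for single genes followed depth, and 137 of 177 moved when cells were thinned to 1000 and 157 of 177 when thinned to 500. Of 2144 log2 ratios of named genes, under settings that can move a ratio, 2062 stayed on the same side of 2-fold. Under the stricter exclusion 168 of 207 did. The NK share kept CONV lowest under each alternative. The stricter exclusion, which left 22, 82 and 63 NK cells, gave 0.345%, 1.17% and 1.01% in CONV, CONV AsiDNA and FLASH. Thinning gave 0.800% in CONV, dropping the exclusion genes gave 4.12% in FLASH, and as a share of the 4 lymphocyte gates NK cells were 4.20%, 13.2% and 11.8%.

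Counts of genes past 2-fold followed the pseudocount and the minimum sum. With a pseudocount of 1, 430 were higher and 881 lower in CONV than in CONV AsiDNA, 458 and 939 than in FLASH, and 322 higher and 280 lower in CONV AsiDNA than in FLASH, against 236, 493, 238, 570, 125 and 113. With a minimum sum of 50, 93 and 95 were higher in CONV, and 34 and 34 were called between CONV AsiDNA and FLASH. With no minimum, 406 and 367 were higher in CONV. A minimum of 200, chosen after seeing the data, left 12 higher and 36 lower, 9 and 53, and 3 and 2. Thinned to 1000, maturation classes (Cd27 only, both, Itgam only, neither) moved to 0% both, 12.1% Itgam only and 80.3% neither in CONV, to 9.51%, 0.352%, 13.7% and 76.4% in CONV AsiDNA and to 7.66%, 1.91%, 20.6% and 69.9% in FLASH. The stricter exclusion gave 8.54% Cd27 only, 3.66% both and 43.9% Itgam only in CONV AsiDNA, and 3.17% and 47.6% for Cd27 only and Itgam only in FLASH. Under it the log2 ratio of CONV over CONV AsiDNA changed sign for Ddit4 (-0.15) and S1pr1 (0.20), which had passed 2-fold, and for Agfg1 (1.22), which had not, Ddit4 changed sign against FLASH (-1.36), and Xcl1 moved to -0.28, and to -0.06 against FLASH. Klrg1 moved to -0.97 against CONV AsiDNA and Icam1 to 0.40 against FLASH. Scaling by the median gene ratio took Klf2 to -0.97 and -0.96. Of the 20 genes highest in NK cells over other cells, 19 remained with 4 or more rule genes and 19 with the stricter exclusion. The causes were not tested.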

Other observations

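Some genes of NK cells were found in the same cells. Ccl3 was above 0 in 117 of 215 CONV AsiDNA cells with Ccl4 and in 24 of 69 without it, in 87 of 169 and 9 of 40 FLASH cells, and in 11 of 37 and 5 of 29 CONV cells. Cd27 was above 0 in 33 of 86 CONV AsiDNA cells with Xcl1 and in 35 of 198 without it, and in 25 of 56 and 24 of 153 FLASH cells. The genes were chosen after their values were seen, the cells of a library come from 1 mouse, and deeper cells hold more of every gene, so these counts are given as a description with no test.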
